A study of Mus musculus with 7 samples.

Results

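The transcripts described here are those of the matrix metalloproteases, the ADAMTS proteases and the tissue inhibitors of metalloproteases (TIMPs) in cultured fetal mouse kidneys. The genes were chosen by symbol alone, as every Mmp, Adamts and Timp symbol of the deposited tables. This gave 45 genes of 23235 symbols: 22 Mmp, 19 Adamts and 4 Timp genes. Each had 1 entry per table.

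RNA of 7 kidney cultures was sequenced, 3 labelled E2-2 deleted and 4 labelled E2-2 wildtype. Beta-catenin, through which canonical Wnt signals act, was activated in all 7, so both genotypes have that allele and no kidney without it was analysed here. The strain was C57BL/6. Pregnant mice were given tamoxifen at 10.5 days post coitum (2 mg per 40 g of body weight), and their fetuses' kidneys, dissected at the same age, were kept 3 to 4 days on membranes in defined medium with transferrin, insulin and selenium. E2-2, encoded by Tcf4, is an E protein, a transcription factor of the basic helix-loop-helix type. The labels do not name the Cre line or the cells in which it acts, nor which library was cultured for how long. They also do not say whether the libraries came from separate animals, and the spread that the p-values rest on may therefore be technical.

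Matrix metalloproteases are zinc-dependent enzymes that cut collagens, laminins, fibronectin and other matrix proteins. Most are secreted as inactive precursors, and the membrane-type members are anchored at the cell surface. ADAMTS enzymes are secreted relatives with thrombospondin repeats, and include the aggrecanases and versicanases, the procollagen N-proteinases and the von Willebrand factor protease. TIMPs bind the active site of these enzymes, and Timp2 also takes part in the activation of pro-Mmp2 by Mmp14. In the developing kidney these proteins remodel the basement membrane and the stroma around the branching ureteric bud, and Mmp2, Mmp14 and Mmp9 are the members most often studied there.

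Levels are FPKM, the fragments counted per kilobase of transcript and scaled to the size of the library, which corrects for both length and depth. The inferred depth was 14.5 to 26.6 mega-fragments per library. All 13 kidney markers examined were above 0 in all 7 libraries. Their summed level was 97.7 FPKM in E2-2 deleted replicate 2 and 235 to 459 FPKM in the other 6 libraries, and in that library Six2, a marker of nephron progenitors, was at 2.69 FPKM against 29.0 to 74.8 FPKM elsewhere. Ret, Wnt11 and Osr1 were not lowest there, at 4.85, 6.81 and 9.26 FPKM against lowest values of 2.00, 5.66 and 7.23 FPKM in wildtype libraries. The summed level of 5 Wnt feedback genes, among them Axin2, was 524 FPKM in the same library, 162 and 213 FPKM in the other deleted libraries and 98.6 to 137 FPKM in the wildtype libraries. E2-2 deleted replicate 2 therefore stood apart from the rest. Tcf4 itself was at 33.5, 41.7 and 42.0 FPKM in the deleted and 48.8, 58.1, 28.7 and 39.2 FPKM in the wildtype libraries. These ranges overlapped, so the level over the whole gene did not separate the labels, and the part of the gene that was deleted is not given in the sources used here. The deposited names start with BI (deleted replicates 1 and 2, wildtype replicates 1 and 2) or BM (deleted replicate 3, wildtype replicates 3 and 4). What these prefixes stand for is not given, and the differences that change sign within either are given after the gene families.

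Regulatory sequence was read from RefSeq promoter windows (GRCm38.p6), which were found for 31 of the 45 genes as 34 windows, 3 genes having 2 each. The window searched was the 250 bases before the annotated start. The AP-1 motif TGANTCA, which reads the same on both strands, occurred in 7 of the 34 windows (20.6%) against 6.75% of 32851 windows of the same length. All 7 belonged to genes of the cluster on chromosome 9, which are neighbours, so these windows are not independent. The windows of Mmp8 and Mmp27, of the same cluster, held no TGANTCA, nor did the other windows of Mmp12 and Mmp7. The 7 are shown because their genes, all but Mmp12 under the level limit for testing, share this word near the start. The choice by symbol did not use it. Each line gives 29 bases in the direction of the gene, with the motif in capitals.

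Mmp13: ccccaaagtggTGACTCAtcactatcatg
Mmp12: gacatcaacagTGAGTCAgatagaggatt
Mmp1b: gttacaaagccTGAGTCAtatagcctctg
Mmp3: ggaagcaattaTGAGTCAgttttcgggtg
Mmp1a: gttgtcaaccaTGAGTCAcatagcctctg
Mmp10: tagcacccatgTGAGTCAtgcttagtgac
Mmp7: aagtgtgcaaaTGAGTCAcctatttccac

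The first base of the motif lay 35 (Mmp13) to 93 (Mmp1b) bases before the start. In 6 of the 7 windows the middle base gave TGAGTCA, and in Mmp13 it gave TGACTCA. The E-box CANNTG, the class of site that E proteins such as E2-2 bind, was in 24 of the 34 windows (70.6%), close to the 66.2% of all windows. The form CAGGTG was in 17.6% against 17.2%, and the TCF/LEF word CTTTGAN in 11.8% against 13.8% (CAGGTG and CTTTGAN on both strands; CAGGTG is 1 form of CANNTG). The Mmp11, Adamts3 and Timp1 windows held no CANNTG. Of the genes whose genotypes did not overlap, Adamts4, Adamts15 and Adamts19 had no window, and that of Mmp11 held no CANNTG. Adamts20 had a window with E-boxes that overlaps no annotated exon. It is shown for that reason, at chr15:94404351-94404600 on the minus strand, with both E-boxes in capitals.

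Adamts20: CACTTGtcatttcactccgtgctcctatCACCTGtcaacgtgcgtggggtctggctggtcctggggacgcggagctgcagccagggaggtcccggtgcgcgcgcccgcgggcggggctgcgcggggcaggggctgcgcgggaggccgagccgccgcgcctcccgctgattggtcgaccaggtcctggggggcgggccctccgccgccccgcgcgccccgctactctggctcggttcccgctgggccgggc

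These E-boxes begin 250 and 222 bases before the start, and the second reads CAGGTG on the other strand. A match of letters is not a binding site, and no binding data were analysed here.

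The kidneys carried a protease pool dominated by a few genes. Mmp2 (gelatinase A, which cuts denatured and basement membrane collagen) had a mean of 203 FPKM over the 7 libraries and Mmp14 (membrane-type MMP that activates pro-Mmp2) had 186 FPKM. Mmp11, or stromelysin-3, an enzyme activated inside the cell by furin and typical of stromal cells, followed at 37.3 FPKM. Together these 3 genes made up 86.4% to 90.5% of the summed Mmp level in every library. Most other Mmp genes were far lower: Mmp23, Mmp15 and Mmp16 had means of 14.2, 13.1 and 9.43 FPKM, and the rest lay below 6 FPKM.

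Among the ADAMTS genes Adamts1 (a versican- and aggrecan-cleaving protease) led at 50.8 FPKM, then Adamts10 (a fibrillin-associated member) at 33.5 FPKM and Adamts9 (a versican-cleaving protease) at 28.3 FPKM. These 3 gave 49.2% to 64.6% of the summed Adamts level. Timp2, Timp3 and Timp1 had means of 91.8, 81.2 and 40.2 FPKM, whereas Timp4 stayed at or below 0.338 FPKM. The summed Mmp level was 1.97 to 2.46 times the summed Timp level in all 7 libraries, with means of 2.21 ± 0.21 (SD, n = 3) in deleted and 2.31 ± 0.13 (SD, n = 4) in wildtype (exact permutation p = 0.514). These sums count transcripts and not active enzyme.

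**Figure D1:**
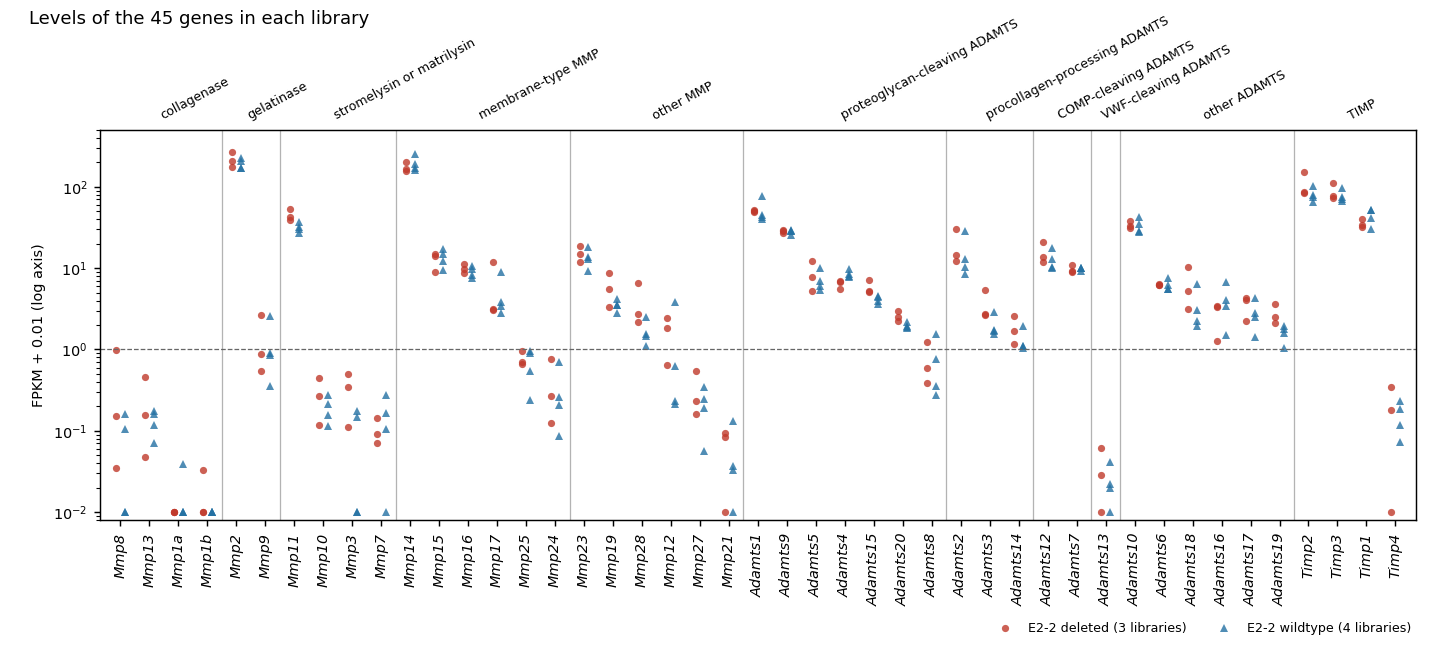
FPKM + 0.01 on a log axis for each of the 45 genes, grouped by enzyme class or known target, with membrane-type enzymes, other enzymes and TIMPs in groups of their own. Each point is 1 library, circles E2-2 deleted (3) and triangles E2-2 wildtype (4). Mmp2 and Mmp14, with means of 203 and 186 FPKM, sit at the top, and the dashed line marks 1 FPKM, the minimum mean level for testing.

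A gene was tested where its mean over the 7 libraries was at least 1 FPKM. This held for 31 of the 45: 11 Mmp, 17 Adamts and 3 Timp genes. Mmp9 (mean 1.25 FPKM) and Mmp12 (1.40 FPKM) lay just inside this limit, and Mmp25 (0.699 FPKM) and Adamts8 (0.723 FPKM) just outside. Differences are E2-2 deleted minus wildtype in log2(FPKM + 1), a scale that compresses the change of genes with low FPKM. They were tested with limma, with p adjusted over all 13469 genes tested. The files are of bulk RNA, in which fewer cells of a type and less RNA per cell cannot be told apart.

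In limma, 0 of the 31 members reached an adjusted p under 0.05 (smallest 0.795), nor did any gene of the whole table (0% called, smallest 0.733). At an unadjusted limma p under 0.05 there were 6 of the 31 (19.4%), against 605 or 4.49% of all genes tested. Of these 5 were higher in the deleted libraries (Mmp11, Adamts15, Adamts19, Mmp28 and Adamts3; background 3.29%) and 1 was lower (Adamts4; background 1.2%). The sign was positive for 25 and negative for 6 of the 31, with a median difference of 0.17, while 39.3% of all genes tested were positive, with a median of -0.05. This background share depended on the scaling. With median-of-ratios scaling 26 were positive (median 0.22), against 48.9% of all genes (median -0.004). With a weight per library 23 were positive (median 0.17), against 50.5% of all genes (median 0.001). Without E2-2 deleted replicate 2, 20 of the 31 were positive with a median of 0.04, against 53.0% of all genes tested and a median of 0.009. In that setting 1 gene (Mmp11) was at an unadjusted limma p under 0.05 (3.23%), against 1.72% of all genes tested. By family the positive count over all 7 libraries, unscaled and unweighted, was 9 of 11 Mmp, 14 of 17 Adamts and 2 of 3 Timp genes. The genotypes did not overlap in 5 of the 31: Mmp11, Adamts15, Adamts19 and Adamts20 were higher in all 3 deleted libraries (12.9%, background 2.84%) and Adamts4 lower (3.23%, background 2.05%). Without that library the background shares were 4.01% and 2.61%, and no overlap arose in these 5 genes, which their choice fixes.

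**Figure D2:**
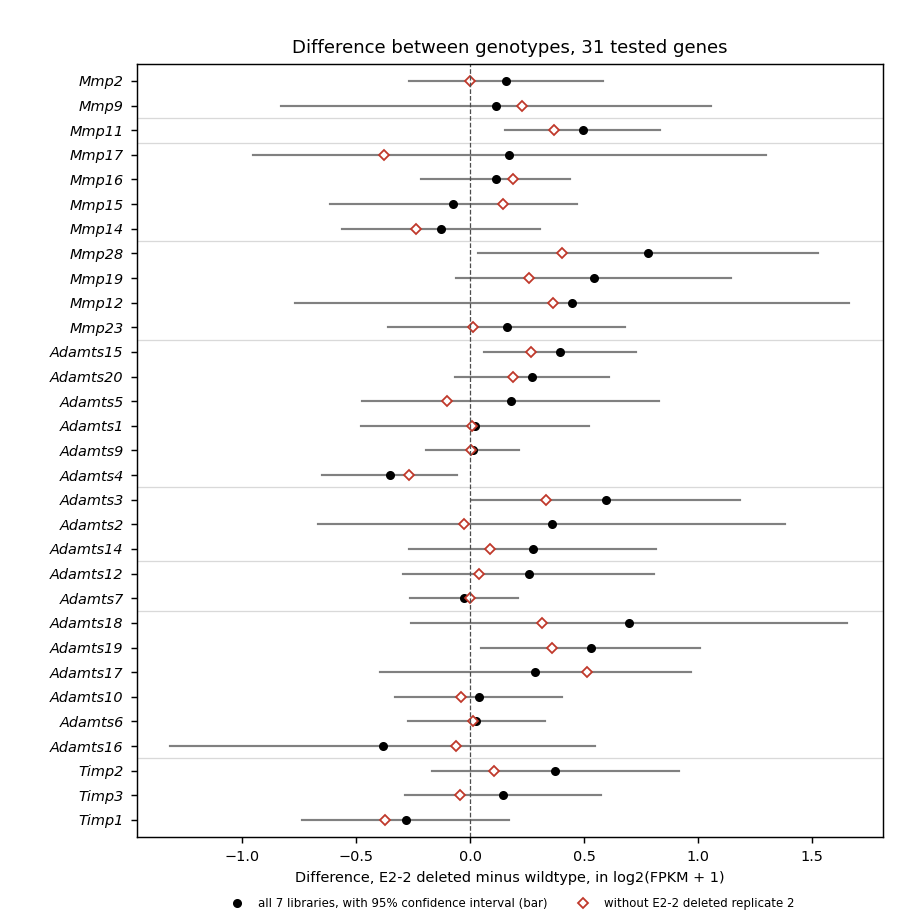
Difference between genotypes in log2(FPKM + 1) for the 31 tested genes, with rules between role groups; black points and bars are the estimate and 95% confidence interval over 7 libraries, open diamonds the estimate without E2-2 deleted replicate 2. Most points lie right of 0, 25 of 31, and many diamonds lie nearer to 0, where 20 of 31 are positive.

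Of all 31 genes Mmp11, on chromosome 10 (75385969 to 75395208 in the deposited coordinates), had the smallest p. In the deleted group it was at 38.6, 53.2 and 43.1 FPKM, and in wildtype at 30.2, 37.1, 32.2 and 26.9 FPKM. Each deleted library was above each wildtype library, although the lowest deleted value was close to the highest wildtype value. The difference was 0.49 (SE 0.15, 95% confidence interval 0.15 to 0.83), with a limma p of 0.0102, an adjusted p of 0.795 and an exact permutation p of 0.0571. It was 0.43 within the BI libraries, 0.54 within the BM libraries and 0.37 without E2-2 deleted replicate 2. Between 1121 and 2164 inferred fragments stood behind each of these values.

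Mmp14 showed no such order. Its level was 156, 204 and 167 FPKM in deleted and 170, 193, 251 and 160 FPKM in wildtype, a difference of -0.13 (SE 0.19). The ratio of Mmp11 to Mmp14 was 0.248, 0.260 and 0.259 in deleted, against 0.177, 0.192, 0.128 and 0.168 in wildtype. The deleted libraries lay close together and all above the wildtype ones, E2-2 deleted replicate 2 included. The means were 0.256 ± 0.007 (SD, n = 3) and 0.167 ± 0.027 (SD, n = 4), with an exact permutation p of 0.0286, the smallest that 7 libraries allow, and 0.157 after adjustment over 11 shares and ratios. On the log2 scale the ratio differed by 0.63, and by 0.51 to 0.71 when each library was left out in turn. Mmp11 made up 9.07% ± 0.57 of the Mmp sum in deleted and 6.78% ± 0.67 in wildtype (exact permutation p = 0.0286, adjusted 0.157). The ratio was chosen after its values were seen, so its permutation p-values describe these libraries and do not test it. The adjustment covers only the 11 quantities computed. The share rests on Mmp11, the gene of smallest limma p among the 31, so its p-values are no separate support. The direction of the ratio in these subsets is likewise fixed by the choice and is no sign of stability.

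**Figure D3:**
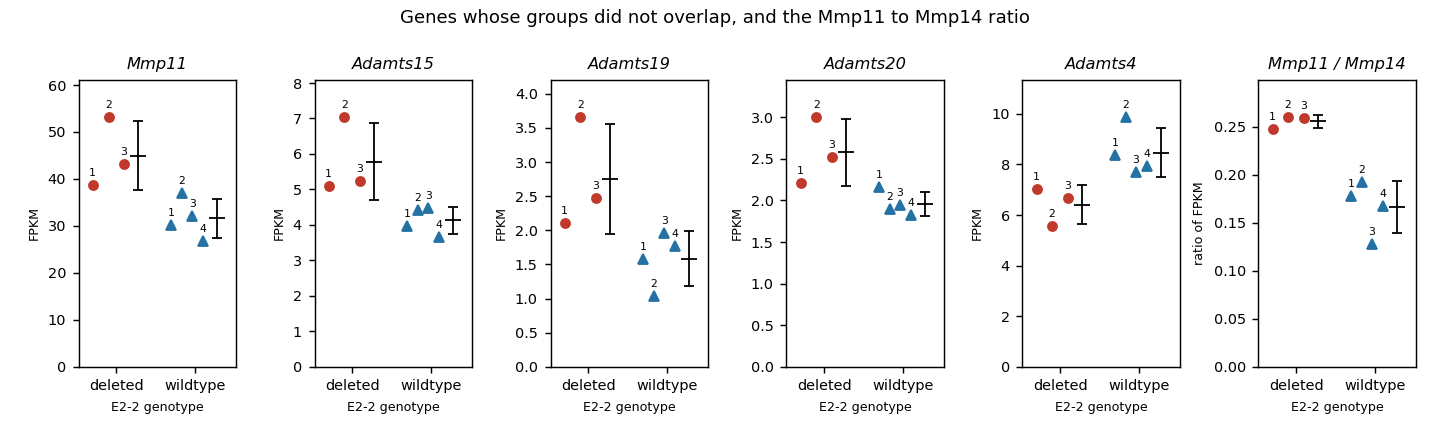
FPKM in each library for the 5 genes whose genotypes did not overlap, and the Mmp11 to Mmp14 ratio; points carry the replicate number, bars are mean ± SD (n = 3 deleted, n = 4 wildtype) and axes start at 0. The Mmp11 to Mmp14 ratio is 0.248 to 0.260 in deleted and 0.128 to 0.192 in wildtype, and E2-2 deleted replicate 2 is the extreme library in all 5 genes.

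Mmp2 was at 209, 266 and 175 FPKM in deleted and 169, 224, 205 and 173 FPKM in wildtype. The genotypes overlapped widely, and the difference of 0.16 (SE 0.18, limma adjusted p = 0.821) became -0.00 without E2-2 deleted replicate 2 and -0.11 within BM. Mmp15 and Mmp16, further membrane-type enzymes, differed by -0.07 (SE 0.23) and 0.11 (SE 0.14). Mmp17, a membrane-type enzyme held by a lipid anchor, was at 11.9 FPKM in E2-2 deleted replicate 2, 9.09 FPKM in wildtype replicate 3 and 2.81 to 3.86 FPKM in the other 5 libraries, so that 1 library of each genotype stood high. Its difference was 0.17 over all libraries and -0.38 without E2-2 deleted replicate 2. The membrane-type Mmp24 (0.0757 to 0.747 FPKM, in a locus that overlaps BC029722) and Mmp25 (0.228 to 0.950 FPKM) were not tested.

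Mmp28 (epilysin, first described in keratinocytes and testis) was at 2.19, 6.51 and 2.71 FPKM in deleted and 1.47, 2.49, 1.09 and 1.52 FPKM in wildtype. Deleted replicate 1 lay under wildtype replicate 2, and the difference of 0.78 (SE 0.32, limma adjusted p = 0.795, exact permutation p = 0.0857) was 0.40 without E2-2 deleted replicate 2. Mmp19, a secreted enzyme of basement membrane components, was at 3.36, 8.68 and 5.59 FPKM against 2.83, 3.54, 4.13 and 3.54 FPKM, with a difference of 0.54 (SE 0.26) and 0.26 without that library. Its locus overlaps Tmem198b, which was at 16.3 to 19.3 FPKM, and since the use of strand in the counting is not stated its values are uncertain. Mmp23, a short enzyme with an N-terminal membrane anchor, differed by 0.16 (SE 0.22) and by 0.01 without it.

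The 9 genes of the chromosome 9 cluster lay within 426903 bases (7272514 to 7699416 in the deposited coordinates, whose build is not given in the sources used here). The cluster holds the collagenases Mmp1a, Mmp1b, Mmp8 and Mmp13, the stromelysins Mmp3 and Mmp10, matrilysin Mmp7, macrophage elastase Mmp12 and Mmp27. Mean levels ran from 0.00325 to 1.40 FPKM, and only Mmp12 was tested. Mmp1a was listed above 0 in 1 library (wildtype replicate 1) and Mmp1b in 1 library (deleted replicate 3), each with 1 inferred fragment. Mmp13 stayed between 0.0374 and 0.452 FPKM and Mmp7 between 0 and 0.263 FPKM. Mmp3, Mmp10 and Mmp27 did not exceed 0.487, 0.440 and 0.534 FPKM. Outside the cluster, Mmp21 on chromosome 7 did not exceed 0.122 FPKM.

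Mmp12 was at 0.626, 1.83 and 2.45 FPKM in deleted and 0.619, 0.220, 3.85 and 0.206 FPKM in wildtype. Both the highest and the lowest values were wildtype, and the difference was 0.45 (SE 0.52, limma adjusted p = 0.821). The summed level of 14 macrophage markers was 201, 284 and 421 FPKM in deleted and 267, 191, 381 and 161 FPKM in wildtype, with none of the 14 at 0 and 12 higher on average in deleted. The libraries with the 2 highest macrophage sums were those with the 2 highest Mmp12 levels, and the part of these cells in the Mmp12 values was not tested.

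Mmp8, neutrophil collagenase, was at 0.978 FPKM in deleted replicate 3 (54 inferred fragments) and at 0 to 0.152 FPKM in the other 6 libraries. The summed level of 8 neutrophil markers was 188 FPKM in that library, 42.8 and 52.1 FPKM in the other deleted libraries and 1.43 to 18.2 FPKM in wildtype. Most of that sum was S100a8 and S100a9 in every library. In deleted replicate 2 they were at 3.63 and 48.2 FPKM, and Ngp, Camp, Elane, Mpo and Retnlg were at 0. Ngp, Camp, Ltf and Retnlg were highest in deleted replicate 3, at 9.78, 5.54, 5.24 and 2.45 FPKM, but Mpo in wildtype replicate 1, at 0.965 FPKM. Of these 8 markers 7 were higher on average in deleted, and 7 were at 0 in at least 1 library, S100a8, Ngp and Mpo among them. Their part in the Mmp8 level was not tested.

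Mmp9 (gelatinase B, made by neutrophils, osteoclasts and other cells) was at 0.536, 0.877 and 2.66 FPKM in deleted and 2.57, 0.901, 0.350 and 0.838 FPKM in wildtype. It was high in 1 library of each genotype, deleted replicate 3 and wildtype replicate 1, and differed by 0.11 (SE 0.41, limma adjusted p = 0.938). The difference was -0.62 within BI and 1.22 within BM. Acp5, an osteoclast enzyme, was at 2.20 and 2.06 FPKM in those 2 libraries and at 0.540 to 1.26 FPKM in the other 5, while the sum of the 4 osteoclast markers found was 21.7 and 13.3 FPKM there and 8.70 to 16.4 FPKM elsewhere. The other markers of that list did not share this order. Ctsk was at 19.2 and 10.9 FPKM there and 7.52 to 14.8 FPKM elsewhere. Calcr was at 0.138 and 0.184 FPKM there and 0.0622 to 0.361 FPKM elsewhere, and Oscar at 0.126 and 0.132 FPKM against 0.109 to 0.208 FPKM. Ibsp, a bone sialoprotein gene, was at 47.8 and 23.6 FPKM there, 25.3 FPKM in deleted replicate 2 and 0.741 to 13.7 FPKM in the rest. It is 1 of 8 osteoblast markers. Of these Dmp1, Phex, Alpl and Sp7 were also highest in the same libraries, Alpl and Sp7 with their maximum in deleted replicate 2. The others differed. Spp1 was lowest of the 7 libraries in wildtype replicate 1, at 359 FPKM. Bglap was highest in deleted replicate 2 and wildtype replicate 2, at 3.92 and 3.90 FPKM, as was Runx2, at 7.97 and 4.29 FPKM. The neutrophil marker sum was 188 and 18.2 FPKM in deleted replicate 3 and wildtype replicate 1. It was 42.8 and 52.1 FPKM in the other deleted libraries and 1.43 to 10.8 FPKM in the other wildtype libraries. The part of any of these cells in the Mmp9 values was not tested.

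**Figure D4:**
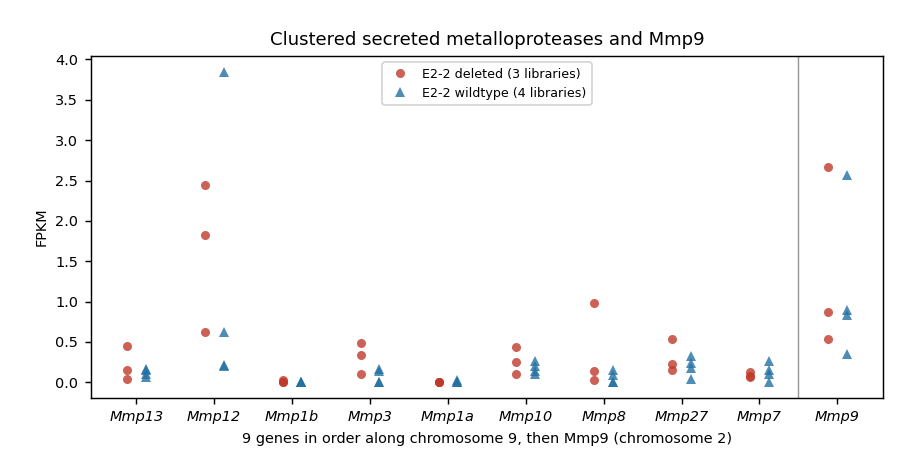
FPKM of the 9 chromosome 9 genes in their order along the chromosome, and of Mmp9; each point is 1 library, circles E2-2 deleted (3) and triangles E2-2 wildtype (4). Of the cluster only Mmp12 exceeds 1 FPKM in any library, with its highest value, 3.85 FPKM, in wildtype replicate 3.

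The proteoglycan-cleaving ADAMTS genes had differences of both signs. Adamts15, on chromosome 9 (30706740 to 30730037), was at 5.09, 7.04 and 5.23 FPKM in deleted and 3.98, 4.41, 4.47 and 3.66 FPKM in wildtype. Every deleted library was above every wildtype library, with a difference of 0.40 (SE 0.14, limma p = 0.0258, adjusted p = 0.795, exact permutation p = 0.0286). It was 0.27 without E2-2 deleted replicate 2. Adamts4, the aggrecanase-1 gene on chromosome 1 (173180553 to 173190053), went the other way, at 7.01, 5.57 and 6.66 FPKM against 8.38, 9.87, 7.68 and 7.94 FPKM. It was lower in all 3 deleted libraries, with a difference of -0.35 (SE 0.13, limma adjusted p = 0.795, exact permutation p = 0.0286) and -0.27 without E2-2 deleted replicate 2. Adamts20, which cleaves versican and is known from pigment cell migration in the mouse, was at 2.21, 3.00 and 2.52 FPKM against 2.16, 1.90, 1.95 and 1.82 FPKM. Deleted replicate 1 and wildtype replicate 1 nearly touched, and the difference was 0.27 (SE 0.15, limma p = 0.101, exact permutation p = 0.0286), and 0.19 without deleted replicate 2.

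The abundant Adamts1 and Adamts9 differed by 0.02 (SE 0.22) and 0.01 (SE 0.09), the confidence interval of Adamts9 running from -0.19 to 0.21. Adamts5, aggrecanase-2, ranged from 5.18 FPKM in deleted replicate 1 to 12.2 FPKM in deleted replicate 2, a spread within the deleted group wider than that of the wildtype group (5.36 to 9.90 FPKM). Adamts1 and Adamts5 are neighbours on chromosome 16, 55041 bases apart, and were highest in different libraries (wildtype replicate 2 at 76.9 FPKM for Adamts1). Adamts15 and Adamts8 are neighbours on chromosome 9, 20110 bases apart, and Adamts8 was at 0.268 to 1.52 FPKM with overlapping genotypes.

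The procollagen N-proteinases Adamts2, Adamts3 and Adamts14, which trim the amino-terminal propeptide of fibrillar procollagens, had positive differences over all 7 libraries. Adamts3 was at 2.65, 5.39 and 2.70 FPKM in deleted and 1.55, 1.72, 2.88 and 1.70 FPKM in wildtype. Wildtype replicate 3 reached above 2 of the 3 deleted libraries, and the difference was 0.60 (SE 0.25, limma adjusted p = 0.795, exact permutation p = 0.114), or 0.33 without E2-2 deleted replicate 2. Adamts2 was at 30.6 FPKM in deleted replicate 2 and 28.7 FPKM in wildtype replicate 3, and at 8.42 to 14.4 FPKM in the other 5 libraries. Its difference of 0.36 (SE 0.44) was -0.03 without deleted replicate 2 and -0.12 within BM. Adamts14 was likewise highest in these 2 libraries, at 2.55 and 1.95 FPKM against 1.02 to 1.70 FPKM, with a difference of 0.27 (SE 0.23), and 0.09 without deleted replicate 2.

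Of the remaining ADAMTS genes Adamts19 was at 2.11, 3.66 and 2.48 FPKM in deleted and 1.58, 1.04, 1.96 and 1.77 FPKM in wildtype. All 3 deleted libraries were above the wildtype libraries, by 0.53 (SE 0.21, limma adjusted p = 0.795, exact permutation p = 0.0286), and by 0.36 without E2-2 deleted replicate 2. Adamts18 differed by 0.69 (SE 0.41), and by 0.32 without that library, with overlapping genotypes, being at 10.2 FPKM in deleted replicate 2 and 6.38 FPKM in wildtype replicate 3 against 1.94 to 5.30 FPKM elsewhere. Adamts12 and Adamts7, which cleave cartilage oligomeric matrix protein, differed by 0.26 (SE 0.24) and -0.03 (SE 0.10), the first being 0.04 without deleted replicate 2. Adamts16, a gene expressed in kidney and gonad, was lowest in deleted replicate 2 at 1.25 FPKM and in wildtype replicate 3 at 1.51 FPKM, and at 3.33 to 6.71 FPKM in the other libraries. Adamts6, Adamts10 and Adamts17 differed by 0.03, 0.04 and 0.29, with overlapping genotypes, and by 0.01, -0.04 and 0.51 without deleted replicate 2. Adamts13, the von Willebrand factor protease made mainly in liver, did not exceed 0.0513 FPKM.

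Among the inhibitors Timp1 was at 33.8, 40.0 and 32.2 FPKM in deleted and 30.5, 41.2, 52.2 and 51.9 FPKM in wildtype. Wildtype replicates 3 and 4, both BM, were the 2 highest, and the difference of -0.28 (SE 0.20, limma adjusted p = 0.795) was 0.05 within BI and -0.68 within BM. Timp2 was at 84.3, 150 and 86.4 FPKM against 75.6, 78.3, 101 and 65.9 FPKM, and its difference of 0.37 (SE 0.23) was 0.10 without E2-2 deleted replicate 2. Timp3, which binds to the matrix and also inhibits ADAMTS enzymes, was at 76.3, 111 and 72.1 FPKM against 74.0, 96.2, 67.8 and 71.5 FPKM, with a difference of 0.14 (SE 0.19) and -0.05 without that library. No inhibitor separated the genotypes. The ratio of Timp2 to Timp1 was 2.98 ± 0.68 (SD, n = 3) in deleted and 1.90 ± 0.49 (SD, n = 4) in wildtype (exact permutation p = 0.0571, adjusted 0.157). Timp1, Timp3 and Timp4 lie inside the synapsin genes Syn1, Syn3 and Syn2 in the deposited coordinates. Syn1 and Syn3 were at 0.631 to 5.65 and 0.510 to 2.43 FPKM, below Timp1 and Timp3. Syn2 was at 0.822 to 10.3 FPKM, above Timp4, whose low values are therefore uncertain.

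The spread within genotypes followed particular libraries. E2-2 deleted replicate 2 was the highest of the 7 libraries in 17 of the 31 genes (54.8%) against 17.2% of all genes tested, and the lowest in 3 (9.68%) against 44.4%. Deleted replicate 2 and wildtype replicate 3, which differ in genotype and in prefix, were the 2 highest libraries in 12 of the 31 genes (38.7%) against 5.08% of all genes tested. These 12 were Mmp14, Mmp17, Mmp23, Timp2, Adamts2, Adamts3, Adamts5, Adamts6, Adamts10, Adamts12, Adamts14 and Adamts18. The same pair was lowest in Mmp15, Adamts16 and Adamts17. With median-of-ratios scaling the first count was 18 (29.4% of all genes) and the pair count 12 (9.59%), and with quantile normalization they were 20 (26.7%) and 13 (8.60%). Deleted replicate 2 was lowest in 2 genes (28.9% of all genes) with the first scaling and in 3 (31.1%) with the second. Wildtype replicate 4 was highest in 0 of the 31 genes against 24.5% of all genes, on unscaled levels. That library had the largest median-of-ratios factor, 1.06, and its count was not recomputed with scaling. The pattern over libraries was chosen after its values were seen, the genes are not independent, and it gives no comparison of conditions. The summed level of the 13 kidney markers was low in deleted replicate 2 (97.7 FPKM) and not in wildtype replicate 3 (377 FPKM). Single markers differed in this. Six2 was at 2.69 and 54.6 FPKM in these 2 libraries, but Ret at 4.85 and 2.00 FPKM, the second being its lowest of the 7 libraries. The summed level of 8 osteoblast markers was 799 and 706 FPKM in these 2 libraries and 404 to 619 FPKM in the others. Most of that sum was Spp1, osteopontin, at 714 and 697 FPKM, and the other 7 markers summed to 85.5 FPKM in deleted replicate 2 and to 9.19 FPKM, the lowest of the 7 libraries, in wildtype replicate 3. The part of cell composition in the pattern was not tested.

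**Figure D5:**
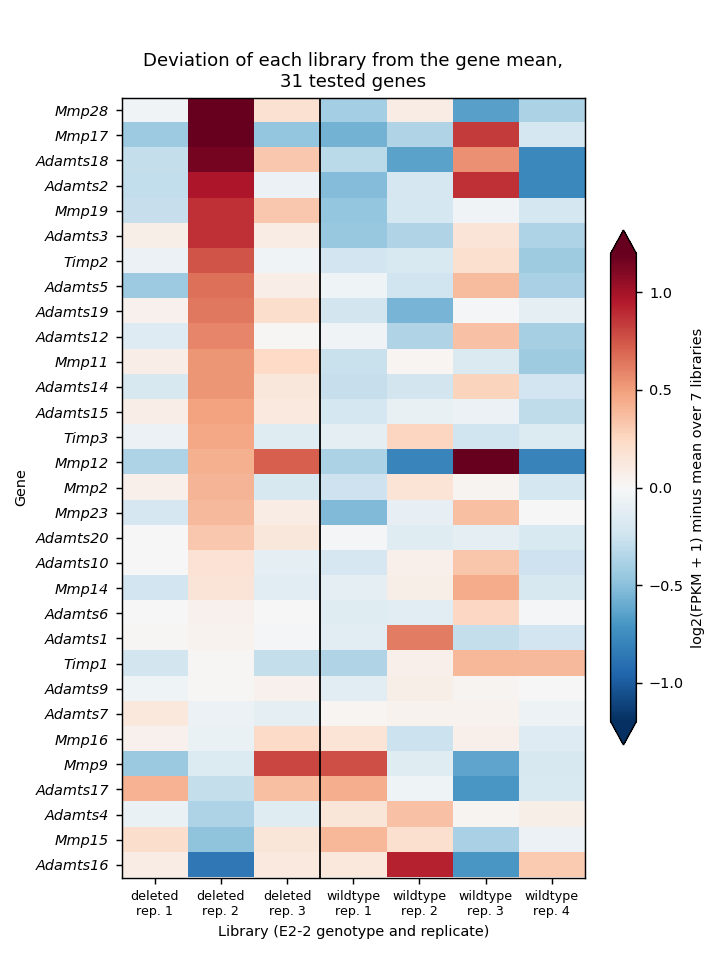
Deviation of each library from the gene's mean in log2(FPKM + 1), 1 row per tested gene and 1 column per library, red above and blue below the mean, with colours capped at the ends of the scale. The column of E2-2 deleted replicate 2 is red in most rows, being highest in 17 of 31, and that of wildtype replicate 3 is often red in the same rows.

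Omitting E2-2 deleted replicate 2 turned the sign of 7 of the 31 differences, those of Mmp2, Mmp15, Mmp17, Timp3, Adamts2, Adamts5 and Adamts10. Without that library Mmp15 differed by 0.14, Adamts5 by -0.10 and Adamts16, which kept its sign, by -0.06 in place of -0.38. Within BI 4 genes had the other sign than over all libraries: Mmp9 and Timp1, given above, Adamts1 (-0.21) and Adamts17 (-0.13). Within BM 8 did: Mmp2 and Adamts2, given above, Mmp15 (0.37), Mmp17 (-0.78), Mmp23 (-0.09), Adamts6 (-0.11), Adamts10 (-0.15) and Adamts16 (0.31). None of these was among the 6 genes at an unadjusted limma p under 0.05. BM holds 1 deleted library.

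Other genes that act with these enzymes were listed as 80 symbols, of which 65 were tested. Of these 41 were positive and 24 negative, none passed the adjusted p of limma, and 7 were at an unadjusted limma p under 0.05 (6 higher, 1 lower; 10.8% against the 4.49% of all genes). Among regulators, A2m, alpha-2-macroglobulin, a broad protease trap, was at 5.96, 16.3 and 8.20 FPKM in deleted and 3.05, 1.34, 0.511 and 6.44 FPKM in wildtype, a difference of 1.69 (SE 0.55, limma adjusted p = 0.795, exact permutation p = 0.0857) with overlap through wildtype replicate 4. Lrp1, a clearance receptor for protease-inhibitor complexes, differed by 0.38 (SE 0.25), by 0.14 without E2-2 deleted replicate 2 and by -0.08 within BM.

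Of the 5 tested genes of the plasminogen system, which yields plasmin, an activator of several pro-MMPs, 4 were negative. Serpine2, an inhibitor of plasminogen activators, differed by -0.18 (SE 0.11), with overlapping genotypes. Among the ADAMTS-like genes, which have no protease domain, Thsd4 was at 17.8, 31.6 and 15.2 FPKM against 13.7, 12.3, 14.7 and 14.2 FPKM. It was higher in all 3 deleted libraries by 0.55 (SE 0.23, limma adjusted p = 0.795, exact permutation p = 0.0286), by 0.25 without E2-2 deleted replicate 2 and by 0.07 within BM. Adamtsl2 differed by 0.55 (SE 0.26), and by 0.38 without that library.

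Among other matrix proteases the serine proteases Htra3 and Htra1 had the smallest p. Htra3 was at 7.91, 21.6 and 10.7 FPKM in deleted and 5.37, 4.32, 5.18 and 3.07 FPKM in wildtype. The genotypes did not overlap, and the difference was 1.30 (SE 0.32, limma adjusted p = 0.795, exact permutation p = 0.0286), or 0.92 without E2-2 deleted replicate 2. Htra1 was at 107 FPKM in deleted replicate 2 and 7.69 to 30.3 FPKM in the other libraries, a difference of 1.55 (SE 0.59) and 0.80 without it.

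Among the substrates Fmod, fibromodulin, a small leucine-rich proteoglycan that binds collagen, was at 18.6, 76.3 and 35.6 FPKM in deleted and 8.34, 4.29, 7.66 and 2.75 FPKM in wildtype. Every deleted library was above every wildtype library, by 2.59 (SE 0.49, limma adjusted p = 0.795, exact permutation p = 0.0286) and by 2.08 without E2-2 deleted replicate 2. Dcn, decorin, of the same protein family, differed by 0.51 (SE 0.27), and by 0.33 without it. Across the 19 tested substrates 12 were positive, with a median of 0.03. The AP-1 and ETS factors and Runx2 had 5 positive and 7 negative differences among 12 tested. Fosl2 differed by 0.46 (SE 0.19, exact permutation p = 0.0857) and Jund by -0.43 (SE 0.15, exact permutation p = 0.0571), both with overlapping genotypes and a limma adjusted p of 0.795.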

How the data were processed

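For each library the authors deposited FPKM values of all genes with their intervals and a status, per the file headers. The submitters' processing notes list CASAVA 1.8.2, TopHat2 2.0.4 and Cufflinks 2.0.2, giving no role for any. Libraries were of poly-A RNA (TruSeq), per the labels' protocols. The genome build is not given in the sources used here, and deposited coordinates are printed counted from 1. The tables hold no counts. Fragments were inferred from the width of each FPKM interval (2 FPKM over the distance from FPKM to upper bound, squared), and among genes with a single start and under 300 fragments 78.9% to 80.3% of them lay within 0.05 of a whole number (10% by chance). FPKM corrects most of a difference in depth, but a shallow library measures low genes less precisely.

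The symbols of 25 genes had become dates in the file of E2-2 deleted replicate 2 and were taken from another table, since the entries match. Entries of 1 symbol were summed (248 symbols). Genes with a failed status in any library or a locus under 200 bases were left out. Values were log2(FPKM + 1), with no further scaling, for the 13469 genes of at least 1 FPKM on average. The genotype difference was fitted by limma 3.58.1 (R 4.3.3, mean-variance trend, 2-sided, Benjamini-Hochberg, threshold 0.05) and by exact 2-sided permutation over 35 splits. The limma fit was also run on simulated data with independent noise per gene and no shift shared by a library. That run therefore does not cover libraries that stand apart, such as E2-2 deleted replicate 2. A count-based test was not run.

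The genes, lists and rules were chosen with earlier results of these data known. Named genes are the Timp genes, Mmp2, Mmp7, Mmp9, Mmp13 and Mmp14, the 2 tested members of smallest p in each role group, those whose genotypes did not overlap, those next to the level limit, and the 2 related genes of smallest p in each related group. Other members and markers are named to account for every gene or beside a result, after their values were seen. A further gene of the family and a related gene that this rule picks are not reported here.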

Additional observations from a re-analysis of the deposited data

Results flagged for a closer look

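In the wildtype group of 4 libraries, wildtype replicate 3 stood apart from the other 3 in 3 genes, by a gap that is large for the range of the group. Adamts14 was at 1.95 FPKM in it and 1.02 to 1.11 FPKM in the others, Adamts3 at 2.88 FPKM against 1.55 to 1.72 FPKM, and Mmp12 at 3.85 FPKM against 0.206 to 0.619 FPKM. Of 25 groups of values examined 3 stood out in this way, and chance alone gives about 1 in 20 for independent groups. All 3 came from the same library and the genes are not independent, so the count cannot be weighed against that share.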

How the results depend on the processing

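No paired analysis was possible because the replicate numbers only follow accession order and do not link libraries. No member passed an adjusted p of 0.05 in limma under any alternative run. Over all genes, 1 gene passed with no level filter and 1 with a weight per library. The number of all genes at an unadjusted p under 0.05 was 605, and was 1000 with no filter, 394 at a mean of at least 5 FPKM, 1141 with weights and 231 (without E2-2 deleted replicate 2) to 1473 (without deleted replicate 1) with 1 library left out. For the members it was 6, and was 2 at a mean of at least 5 FPKM, 2 after quantile normalization and 1 (without deleted replicate 2) to 8 (without deleted replicate 1) with 1 library left out, among them 2 without wildtype replicate 1 and 3 without wildtype replicate 4. The number of all genes was 623 after quantile normalization, 595 without wildtype replicate 1 and 347 without wildtype replicate 4. Members higher in every deleted library numbered 4 of 31, against 382 of all 13469 genes. They numbered 1 of 19 at a mean of at least 5 FPKM (all genes 243 of 10438) and 1 after quantile normalization (all genes 327). With 1 library left out they numbered 4 to 9. The 9, of 30 tested, came without wildtype replicate 3 (all genes 552 of 13515). Without deleted replicate 1 they numbered 6 (all genes 1335 of 13492). Members lower in every deleted library numbered 1 of 31 (all genes 276), and 1 to 2 with 1 library left out. The 2 came without deleted replicate 1 (all genes 1424), wildtype replicate 1 (668 of 13475) and wildtype replicate 3 (527). The members' median difference stayed positive, 0.04 to 0.35 with 1 library left out, while that of all genes ran from -0.09 to 0.01.

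Of 596 recomputed differences of named genes 582 kept their sign, and 7 of 32 genes changed it at least once. Adamts7 was 0.0203 with median-of-ratios scaling and -0.0984 to 0.0199 (without deleted replicate 3) with 1 library left out. Mmp14 was 0.000638 after quantile normalization and -0.239 to 0.00616 (without wildtype replicate 3) with 1 left out. Mmp2 was -0.105 within BM and -0.00169 (without deleted replicate 2) to 0.300 with 1 left out. Mmp9 was -0.0102 after quantile normalization, -0.619 within BI and -0.255 (without deleted replicate 3) to 0.387 with 1 left out, with -0.0809 without wildtype replicate 3. Timp3 was -0.0352 with weights and -0.0463 (without deleted replicate 2) to 0.259 with 1 left out. Timp1 was 0.05 within BI and Lrp1 -0.0780 within BM. The smallest adjusted p of a named gene over all alternatives was 0.182. The cause of these changes was not tested. Depth limits the genes near 1 FPKM, where Mmp9 rested on 27 to 192 and Mmp12 on 11 to 344 inferred fragments per library.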
